A study of Ictidomys tridecemlineatus with 5 samples.

Results

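The mGluR6 cascade of ON bipolar cells was examined in ocular RNA of the thirteen-lined ground squirrel, Ictidomys tridecemlineatus, a rodent that is active by day. Its members were 10 proteins fixed by name, GRM6, TRPM1, NYX, LRIT3, GP179 (gene symbol GPR179), RGS7, RGS11, GNAO (GNAO1), GBG13 (GNG13) and PCP2, and a transcript belonged to a member when its best Swiss-Prot hit carried that name in any species. Of these, 9 were found in both tissues, among 13949 protein names shared by the tables, and GBG13 was found in neither. The members were represented by 22 assembled transcripts in eye and 54 in retina.

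The data came from wild-type animals, with 2 libraries of eye tissue and 3 of retina, each made from the pooled RNA of 4 squirrels. The labels give no age, sex, season or state of hibernation. The deposited tables hold 1 value for each transcript and tissue, read as RPKM, reads per kilobase of transcript scaled to the sequencing depth. There is therefore no spread between libraries, no difference between the tissues could be tested, and the intervals given are 95% counting intervals only.

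ON bipolar cells invert the light response. In darkness, glutamate from photoreceptors binds the receptor mGluR6 on the bipolar dendrite, the G protein Go keeps the cation channel TRPM1 closed, and light lowers glutamate so that TRPM1 opens. Regulators of G protein signalling speed the shutoff of Go, and leucine-rich repeat proteins and an orphan receptor hold the complex together at the dendritic tip. Loss of GRM6, TRPM1, NYX, GPR179 or LRIT3 in humans causes complete congenital stationary night blindness.

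All 9 detected members were lower in eye than in retina, where the level of a member is the RPKM of its highest transcript. On the scale log2(eye RPKM + 1) minus log2(retina RPKM + 1), which understates differences of low transcripts, their median difference was -0.93, beside -0.0035 over the 13383 proteins compared. The differences ranged widely, with NYX at -0.06 and TRPM1 at -0.14 within the middle 50% of all proteins, and RGS7 at -0.43 below it. LRIT3 at -0.94, GNAO at -0.93 and PCP2 at -0.90 lay just inside the 2-fold mark, which here and below means a difference of 1 on this scale. GRM6 at -1.18, RGS11 at -1.81 and GP179 at -4.42 were past the mark, at least 2-fold lower in eye. That is 3 of 9 members, where 3.6% of all proteins were at least 2-fold lower in eye and 50.3% were lower by any amount. With a pseudocount of 0.1 LRIT3 passed the mark too, making 4 of 9 members, beside 4.59% of all proteins. In RNA from bulk tissue, fewer ON bipolar cells per unit of RNA and less RNA per cell cannot be told apart.

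The composition of the samples was checked with lists of marker genes. All 6 rod, 6 cone and 6 amacrine markers were lower in eye, beside 50.3% of all proteins, with median differences of -0.71, -0.87 and -0.50. However, 1 name in the cone list, CNRG, is that of a rod protein. With best-matching transcripts the rod median was -1.10, with 4 of 6 rod markers at least 2-fold lower, beside 3.21% of all proteins. By that measure 4 of the 6 names in the cone list were lower, CNRG among them, while ARRC at 0.26 and OPSG at 0.44 turned. Of 7 ganglion cell markers 6 were lower, whereas 4 of 5 Mueller glia and 4 of 5 pigment epithelium markers were higher in eye, with medians of 0.10 and 0.91 that came to -0.03 and 0.0054 with best-matching transcripts. All 12 bipolar cell markers were present in both tissues. Of 3 horizontal cell markers 2 were found, both lower in eye, with a median of -0.40. Of 5 skeletal muscle markers 4 were in both tissues and 3 of these were higher in eye. KCRM was lower, at 210 RPKM in eye and 584 RPKM in retina. With best-matching transcripts KCRM turned to 1.02 and ACTS to -0.62. Lens, corneal, connective tissue and melanin markers stood far higher in eye: summed over a list, the 6 lens markers reached 7652 RPKM in eye and 25.9 RPKM in retina, of which CRBB1 and MIP were in the eye table only. Their part in the differences of the cascade members was not tested.

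**Figure D1:**
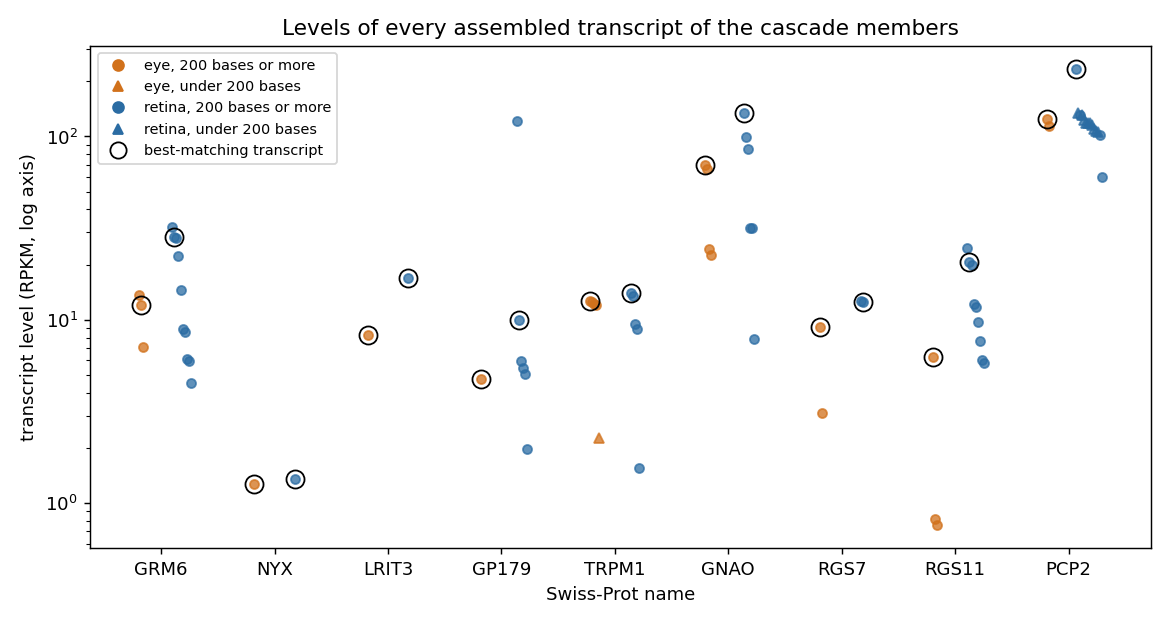
Every assembled transcript of the 9 detected members, with its level in RPKM on a log axis for eye (orange) and retina (blue); triangles are transcripts under 200 bases and rings mark the transcript that best matched the Swiss-Prot protein. Members such as LRIT3 and NYX have 1 transcript in each tissue, while the retina transcripts of GRM6, GP179 and RGS11 spread widely, with 1 GP179 transcript at 122 RPKM above the others at 1.96 to 9.93 RPKM.

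GRM6 encodes mGluR6, the glutamate receptor that starts the cascade. Its highest transcript was at 13.6 RPKM in eye, on 3424 bases and 12308 reads, and at 32.2 RPKM in retina, on 3568 bases and 40842 reads. Eye thus had 42.3% of the retina level, and the counting interval of the difference, -1.21 to -1.16, lay wholly past 2-fold. The transcripts that matched the receptor over the greatest length, 855 residues in eye and 812 in retina, gave nearly the same picture at 12.004 RPKM in eye and 28.4 RPKM in retina. Retina held 10 GRM6 transcripts, from 4.52 to 32.2 RPKM, against 3 in eye, from 7.09 to 13.6 RPKM. With a pseudocount of 5 the difference of GRM6 was -0.998, just inside 2-fold, and with a length-weighted mean over transcripts it was -0.57.

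The other metabotropic glutamate receptors were much scarcer. GRM6 was the most abundant of the family in both tissues, and GRM7, GRM3 and GRM8, the next by mean level, stood at 4.87, 5.73 and 4.33 RPKM in eye and at 8.69, 7.40 and 8.15 RPKM in retina. All 7 of these receptors were lower in eye, beside 50.3% of all proteins, none by 2-fold, and their median difference was -0.39. With transcripts summed, 6 of the 7 were lower and 4 at least 2-fold lower, beside 19.3% of all proteins, with a median of -1.01. With the tissues scaled to an equal total 2 were at least 2-fold lower, beside 7.86% of all proteins, with a median of -0.61.

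NYX, or nyctalopin, is a leucine-rich repeat protein of the postsynaptic membrane that is needed for TRPM1 to reach the dendritic tip in mice. It was the scarcest detected member, at 1.26 RPKM in eye and 1.36 RPKM in retina. Among the proteins compared, this placed NYX at percentile 3.71 in eye and percentile 9.39 in retina. A single transcript in each tissue carried it, with 565 reads in eye and 1011 in retina, both aligned over 478 residues at 63% similarity to the human protein. The counting interval of its difference ran from -0.14 to 0.02 and so covered both directions. Its levels were close to the pseudocount of 1 RPKM, and the spread between libraries is unknown.

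LRIT3, a second leucine-rich repeat protein, acts across the synapse from the photoreceptor side in mice and is needed for nyctalopin and TRPM1 to assemble. It was likewise carried by 1 transcript in each tissue, aligned over 613 residues in both with the same score. Its level was 8.31 RPKM in eye and 16.9 RPKM in retina, so eye had 49.3% of the retina level, and the difference was past 2-fold as a plain ratio and inside the mark with the pseudocount of 1 RPKM. Because LRIT3 has no second transcript, no choice among transcripts could move its difference of -0.94, and only other scalings, with -1.25, and other pseudocounts, with -0.72 to -1.01, did so. Both relatives of LRIT3 in the family lay on the same side, with LRIT1 at 27.6 RPKM in eye and 37.3 RPKM in retina and LRIT2 at 9.69 RPKM in eye and 17.5 RPKM in retina.

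GP179 is the orphan receptor GPR179, which anchors the shutoff proteins RGS7 and RGS11 to the receptor complex. Its value depended strongly on the transcript. In retina the highest transcript was 1503 bases long, matched 432 residues at 80% similarity, and stood at 122 RPKM with 65154 reads, 12.3 times the next. The transcript of 7767 bases, which matched 1751 residues, was at 9.93 RPKM, and the other 4 retina transcripts were at 1.96 to 5.98 RPKM. In eye a single transcript of 9402 bases matched 2381 residues and stood at 4.75 RPKM.

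With these best-matching transcripts the difference of GP179 was -0.93, close to that of LRIT3, whereas the short retina transcript set it at -4.42. Eye had 47.9% of the retina level by the first measure and 3.90% by the second. Length-weighted means gave -1.80. The deposited tables do not show whether the short transcript is a separate isoform, and the cause of its high level was not tested.

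**Figure D2:**
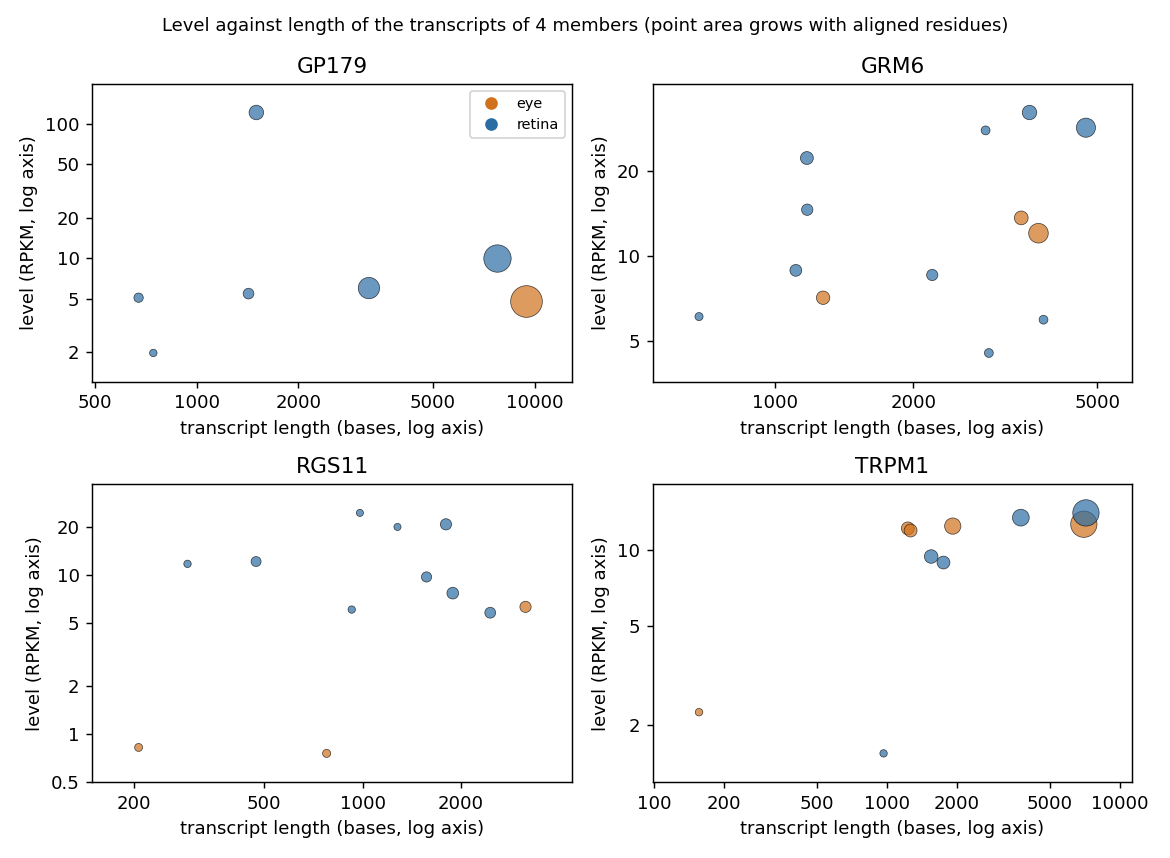
Level in RPKM against length in bases, both on log axes, for each transcript of GP179, GRM6, RGS11 and TRPM1 in eye (orange) and retina (blue), with larger points for longer alignments. The retina transcript of GP179 at 122 RPKM is 1503 bases long, and the TRPM1 transcripts of about full length overlap between the tissues at 12.7 RPKM in eye and 14.1 RPKM in retina.

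GNAO is the alpha subunit of Go, which couples mGluR6 to the channel and is also abundant in most other neurons. It was the second most abundant member in both tissues, at 70.1 RPKM in eye and 134 RPKM in retina, 5.15 and 4.17 times the level of GRM6. In each tissue 2 transcripts shared the best alignment, 354 residues at 99% similarity, at 70.1 and 66.7 RPKM in eye and at 134 and 99.7 RPKM in retina. Differences between these transcripts ran from -0.50 to -0.995 depending on the pair taken. A further transcript in each tissue aligned over 354 residues at 96% similarity, at 22.4 RPKM in eye and 31.9 RPKM in retina, a difference of -0.49. GNAO is closely related to the Gi subunits, and reads may be shared among them.

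The related inhibitory alpha subunits did not follow GNAO as a group. GNAI2 was at 79.9 RPKM in eye and 40.4 RPKM in retina, GNAZ at 30.5 RPKM in eye and 43.2 RPKM in retina, and GNAI1 at 13.4 RPKM in eye and 16.9 RPKM in retina. Of the 4 relatives 2 were higher and 2 lower in eye, none by 2-fold, and their median of 0.03 became -0.28 with the tissues scaled to an equal total.

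GBG13 is the gamma subunit found with Go in ON bipolar cells of the mouse, and no transcript in either table had it as best hit. Its gene is named in the RefSeq annotation of the species. Of 11 other gamma subunits 10 were in both tables and GBG8 was in the eye table only, at 0.43 RPKM. The cone gamma subunit GBGT2 was the most abundant, at 166 RPKM in eye and 346 RPKM in retina. It was the 1 subunit at least 2-fold lower in eye, at -1.06, beside 3.6% of all proteins. GBG11, GBG10 and GBG12 were at least 2-fold higher in eye, beside 11.8% of all proteins, with GBG11 at 113 RPKM in eye and 37.8 RPKM in retina, GBG10 at 18.04 RPKM in eye and 7.46 RPKM in retina, and GBG12 at 11.5 RPKM in eye and 4.82 RPKM in retina. With best-matching transcripts GBG10 was at 15.5 RPKM in eye and 7.46 RPKM in retina, a difference of 0.96, which is inside the mark through the pseudocount. The 10 subunits split evenly, 5 higher and 5 lower in eye, with and without scaling to an equal total.

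The beta subunits that serve the cascade were both lower in eye. GBB3, which is shared by cones and ON bipolar cells, was at 354 RPKM in eye and 647 RPKM in retina, and GBB5, the obligate partner of the R7 class of RGS proteins, was at 79.1 RPKM in eye and 190 RPKM in retina, a difference of -1.26. The other beta subunits differed less, with GBB1 at 176 RPKM in eye and 200 RPKM in retina and GBB2 at 116 RPKM in eye and 71.0 RPKM in retina, while GBB4 was at 5.31 RPKM in eye and 4.28 RPKM in retina and changed direction when scaled to an equal total.

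RGS7 and RGS11 are the GTPase-activating proteins that shut off Go in ON bipolar cells and act redundantly there in mice. RGS7 was at 9.12 RPKM in eye and 12.7 RPKM in retina, both on transcripts of 2312 bases aligned over 469 residues, a difference of -0.43. Eye had 72.1% of the retina level. RGS7 stayed lower in eye under all 14 alternative ways of taking its level, by -0.32 to -0.99. The largest of these differences came from sums, with eye at 48.5% of retina, and was inside the 2-fold mark through the pseudocount.

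RGS11 lay further below its retina level. Its highest transcripts were at 6.29 RPKM in eye, on 3148 bases, and at 24.5 RPKM in retina, on 982 bases of which only a stretch of 35 residues matched the protein. A better matched pair, aligned over 222 residues with the same score in both tissues, was at 6.29 RPKM in eye and 20.8 RPKM in retina, a difference of -1.58, with eye at 30.3% of retina. Retina held 9 RGS11 transcripts, from 5.78 to 24.5 RPKM, and eye 3, of which 2 were under 1 RPKM and matched at 51 to 52% similarity. Among the 14 alternatives only the longest transcript reversed the direction, to 0.10, through a retina transcript of 2456 bases that matched at 61% similarity. By highest transcript RGS7 exceeded RGS11 in eye, and RGS11 exceeded RGS7 in retina.

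Among the other proteins of the RGS complex, RGS9, the photoreceptor member of the class, was at 12.3 RPKM in eye and 23.2 RPKM in retina. R7BP, which anchors RGS proteins of the R7 class, was at 6.56 RPKM in eye and 6.83 RPKM in retina, and RGS6 at 7.28 RPKM in eye and 7.03 RPKM in retina, a direction that turned with scaling to an equal total. GP158, the closest relative of GP179, was at 5.86 RPKM in eye and 9.05 RPKM in retina. The RGS9 anchor, which carries the name R9BP in the tables, was at 19.9 RPKM in retina and not found in eye. Of the 6 partners with a value in each tissue, 5 were lower in eye, beside 50.3% of all proteins. GBB5 alone was at least 2-fold lower, beside 3.6% of all proteins. With best-matching transcripts GBB3 passed the mark too, at 182 RPKM in eye and 633 RPKM in retina, a difference of -1.80. The median difference of the partners was -0.71 by highest transcript.

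TRPM1 is the cation channel at the end of the cascade and was named melastatin for its expression in melanocytes. It was nearly level between the tissues, at 12.7 RPKM in eye and 14.1 RPKM in retina on transcripts of 7002 and 7148 bases, so eye had 90.1% of the retina level. The counting interval of the difference was -0.16 to -0.12. In eye the 4 transcripts of 200 bases or more lay between 11.97 and 12.7 RPKM, and in retina the 5 transcripts lay at 14.1, 13.5, 9.42, 8.92 and 1.55 RPKM.

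The direction of TRPM1 depended on which transcripts were compared. In each tissue 1 transcript aligned over 318 residues of the rat protein with the same score. These were at 12.2 RPKM in eye, on 1229 bases, and at 8.92 RPKM in retina, on 1748 bases, a difference of 0.41. Whether the alignments cover the same residues is not known. Among 11 such matched pairs over 7 members, a comparison chosen after the values were seen, the TRPM1 pair was the only one higher in eye. The pairs are not independent, because the same GNAO transcripts enter several of them. Sums over transcripts and length-weighted means also put TRPM1 higher in eye, by 0.12 and 0.04.

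Melanin genes lay in the opposite direction to the cascade members by highest transcript, though NYX and TRPM1 differed little between the tissues. All 8 listed, TYRP1, TYRO, TYRP2, PMEL, MAR1, P, S45A2 and MITF, were at least 2-fold higher in eye, beside 11.8% of all proteins. Their median was 3.66. With best-matching transcripts 7 of 8 were higher, with a median of 2.98, and MAR1 turned, at 0.547 RPKM in eye and 1.46 RPKM in retina. By highest transcript their levels ran from 3.32 to 117 RPKM in eye and from 0.54 to 4.72 RPKM in retina, with sums of 342 RPKM in eye and 16.9 RPKM in retina, and none was absent. TYRP1, an enzyme of melanin synthesis, was at 117 RPKM in eye and 4.72 RPKM in retina, and PMEL, the melanosome matrix protein, at 79.2 RPKM in eye and 3.49 RPKM in retina. Their part in the level of TRPM1 was not tested.

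Other channels of the TRPM family were below TRPM1 in retina, TRPM3 only slightly by highest transcript, but not all were below it in eye. TRPM3, at 37.0 RPKM in eye and 13.8 RPKM in retina, was at least 2-fold higher in eye with its highest transcripts and differed by 0.76 with best-matching ones. TRPM2, TRPM4 and TRPM7 were between 1.37 and 4.28 RPKM in eye and between 1.42 and 4.12 RPKM in retina. TRPM5 was found in eye only, at 0.73 RPKM, and TRPM6 and TRPM8 in neither.

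PCP2, a small protein with a GoLoco motif that binds Go alpha subunits and marks ON bipolar cells and cerebellar Purkinje cells in mice, was the most abundant member. It stood at 125 RPKM in eye and 234 RPKM in retina, at percentiles 95.9 and 98.0 of the proteins compared. The values came from transcripts of 533 and 526 bases, each aligned over 136 residues at 91% similarity, a difference of -0.90. Eye had 1 further transcript, at 114 RPKM. Retina had 13 further ones at 60.2 to 135 RPKM, of which 10 were under 200 bases. These decided the other measures: with length-weighted means PCP2 was 0.07 higher in eye, with the longest transcript 0.30 higher, and with sums the difference was -2.83.

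Ordered by highest transcript, eye had PCP2, GNAO, GRM6, TRPM1, RGS7, LRIT3, RGS11, GP179 and NYX from most to least abundant. Retina had PCP2, GNAO, GP179, GRM6, RGS11, LRIT3, TRPM1, RGS7 and NYX. No 2 neighbours in either order had overlapping counting intervals, but the spread between libraries is unknown. With best-matching transcripts GP179 dropped below RGS7 in retina, to 0.35 of the GRM6 level, close to its 0.40 in eye. TRPM1 then stood at 1.06 times GRM6 in eye and 0.50 times GRM6 in retina.

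**Figure D3:**
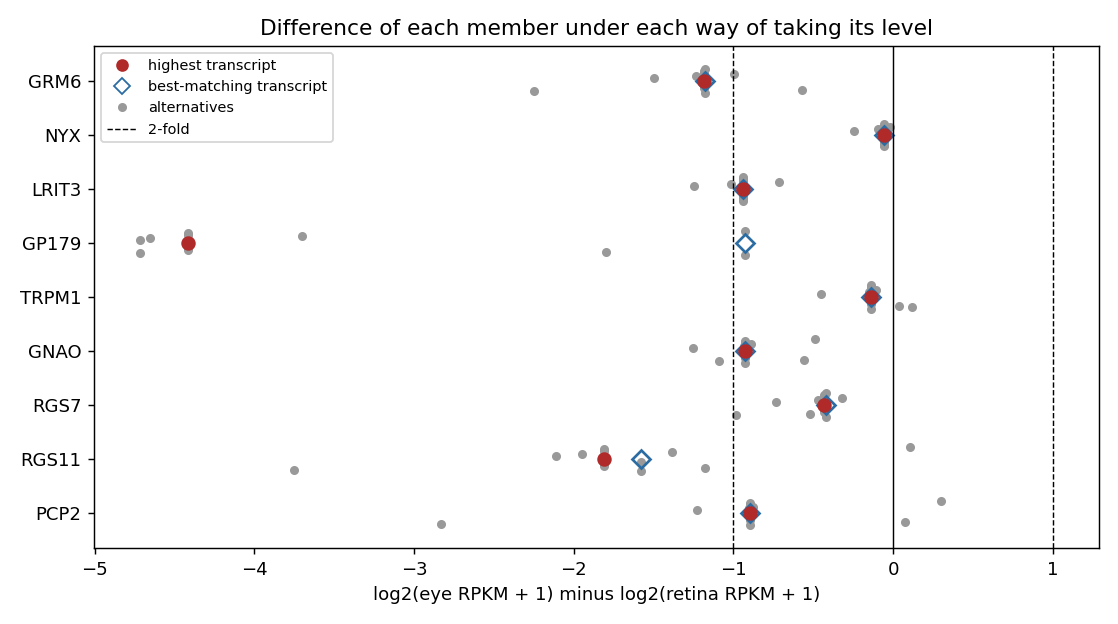
Difference of each member on the scale log2(eye RPKM + 1) minus log2(retina RPKM + 1) by highest transcript (red), by best-matching transcript (blue diamonds) and under the 14 alternatives (grey; 13 for NYX, which a filter at 10 RPKM removed), with dashed lines at 2-fold. GP179 moves from -4.42 to -0.93, while LRIT3 and RGS7 stay below 0 throughout.

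With best-matching transcripts all 9 members remained lower in eye and their median stayed at -0.93, while 2 of 9, GRM6 and RGS11, were past the 2-fold mark, beside 3.21% of all proteins by that measure. LRIT3 and GP179, with eye at 49.3% and 47.9% of retina, were past 2-fold as plain ratios but inside the mark with the pseudocount. Of all proteins 49% were lower in eye by any amount with best-matching transcripts. The range then narrowed to -1.58 to -0.06. For NYX, LRIT3, RGS11, GNAO and PCP2 these transcripts aligned over the same number of residues with the same score in both tissues.

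Proteins that face the cascade across the cleft were mostly lower in eye. Of 10 listed, 9 were lower, beside 50.3% of all proteins, and the median difference of the 10 was -0.70. EGFLA and CAC1F were at least 2-fold lower by highest transcript, beside 3.6% of all proteins, but not by best-matching transcript. EGFLA, or pikachurin, which links dystroglycan to GPR179, was at 26.0 RPKM in eye and 62.5 RPKM in retina. CAC1F, the calcium channel of the photoreceptor terminal, was at 13.98 RPKM in eye and 35.2 RPKM in retina. The exception was dystroglycan, DAG1, also made in muscle and other tissues, at 16.9 RPKM in eye and 12.95 RPKM in retina. The presynaptic mGluR6 partner ELFN1, under its table name PPR28, was at 10.5 RPKM in eye and 16.9 RPKM in retina.

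Bipolar cell markers outside the cascade had a smaller median, -0.51, with 10 of 12 lower in eye, beside 50.3% of all proteins. Of the 12, 2 were at least 2-fold lower, beside 3.6% of all proteins. Those were ISL1, a transcription factor of ON bipolar and amacrine cells, at 5.18 RPKM in eye and 12.4 RPKM in retina, and PRDM8, at 14.3 RPKM in eye and 33.9 RPKM in retina. Both were within 2-fold with best-matching transcripts, where the median of the list was -0.37. With an equal total all 12 were lower, with a median of -0.83. With the longest transcript the median was -0.18, and 3 of 12 were at least 2-fold higher, beside 13.5% of all proteins. CABP5, the most abundant of the list, was at 205 RPKM in eye and 209 RPKM in retina. KPCA, the protein kinase of rod bipolar cells, was at 6.03 RPKM in eye and 6.79 RPKM in retina, and GRIK1, a kainate receptor subunit of OFF bipolar cells, was at 33.4 RPKM in eye and 64.7 RPKM in retina. TPBG and BHE23 were higher in eye, but not with the tissues scaled to an equal total. Across all 8 related lists, 56 proteins were in both tables, of which 40 were lower in eye, beside 50.3% of all proteins. At least 2-fold lower were 6 and at least 2-fold higher 4, beside 3.6% and 11.8% of all proteins.

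**Figure D4:**
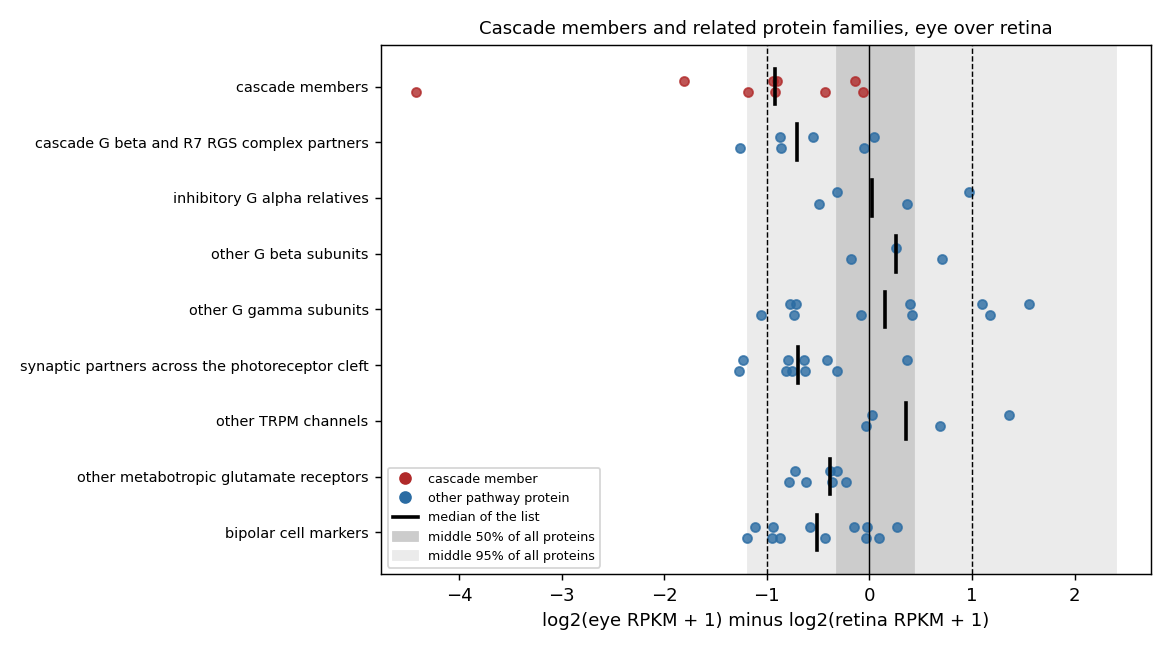
Differences between eye and retina for the cascade members (red) and 8 lists of related proteins (blue), with the median of each list as a black bar; dark and light grey bands hold the middle 50% and 95% of all 13383 proteins and dashed lines mark 2-fold. The median of the members lies at -0.93, that of the synaptic partners at -0.70 and that of the other TRPM channels at 0.36.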

How the data were processed

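RNA was sequenced from 2 eye and 3 retina libraries, grouped by title. Bowtie appears in the submitters' processing notes without a version; assembler, counting mode and genome build are not stated in the sources used here. Per the file headers, the deposited tables give an expression value and a length per assembled transcript, and its best Swiss-Prot hit with E-value (read as the authors deposited it, not as a p-value of any comparison here), percent similarity and alignment score. The deposited values were taken as RPKM. Value times length was a whole multiple of 1 constant per tissue for 100% of transcripts within 0.01 reads. That pattern shows counts scaled by length, but it cannot show that the constant reflects the number of mapped reads. Read as RPKM, the constant implies a total of 264219334 reads in the eye table and 355988270 in the retina table. At 1 RPKM this is 264 and 356 reads per kilobase. Recovered reads summed to 19.2 times that total in eye and 10.5 times in retina, for a reason not tested, so reads may not be independent. The excess was unequal, larger in eye than in retina, and its part in the differences between the tissues was not tested.

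Hits were reduced to the name before the species code. A protein's level was its highest transcript, and differences took a pseudocount of 1 RPKM and proteins reaching 1 RPKM in at least 1 tissue. The 2-fold mark, a difference of 1 on that log2 scale, describes size and no test was run. The best-matching transcript has the lowest E-value, then the highest score. The members and lists were chosen with earlier results of these data known. Named were all members and, of each related list, every protein past 2-fold or else the 3 most abundant; further examples, and the table names R9BP, PPR28 and PPR29 for RGS9BP, ELFN1 and ELFN2, were chosen after their values were seen. Marker lists are given mostly by counts. All 10 member symbols matched RefSeq gene names of mIctTri1.hap1. Functions were tested on simulated data in Python 3.11.15 with pandas 2.3.3 and NumPy 2.4.6.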

Additional observations from a re-analysis of the deposited data

How the results depend on the processing

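The members' levels were retaken under 13 alternatives fixed beforehand and 1, the longest transcript, added after the data were seen. GRM6, GP179, LRIT3, GNAO, RGS7 and NYX were lower in eye in every setting that kept them. Signs turned for TRPM1 with sums (0.12) and length-weighted means (0.035), for PCP2 with length-weighted means (0.074) and the longest transcript (0.30), and for RGS11 with the longest transcript (0.10). The members' median was -1.09 with sums, -0.56 with length-weighted means, -1.25 with an equal total and -0.42 with the longest transcript. With sums 5 of 9 members were at least 2-fold lower, beside 19.3% of all proteins. The count was 6 of 9 with an equal total, beside 7.86%, and 1 of 9 with the longest transcript, beside 2.88%. The equal total moved the median of all proteins to -0.29, and the members lay below that median except NYX, at -0.25. Over all proteins, 2637 were at least 2-fold lower in eye with sums, 272 with length-weighted means, 1051 with an equal total and 265 with a pseudocount of 5. At least 2-fold higher were 815 with a pseudocount of 5 and 921 with a filter at 10 RPKM. Of the 56 related proteins, 3 were at least 2-fold lower with best-matching transcripts, 5.36% beside 3.21% of all proteins. The number was 20 with sums, 35.7% beside 19.3%, and 18 with an equal total, 32.1% beside 7.86%. With length-weighted means it was 1, 1.79% beside 2.05%, and with the longest transcript 2, 3.57% beside 2.88%. Higher by at least 2-fold were 2 with best-matching transcripts, an equal total or a pseudocount of 5, each 3.57% beside 11.8%, 8.51% and 6.09%. With the longest transcript 7 were, 12.5% beside 13.5%. Except where a transcript is named in the report, the cause was not tested. No paired analysis was possible because the tables hold 1 value per tissue, which also means that no library could be left out. NYX, with 565 reads in eye, stood at 1.26 RPKM in eye and 1.36 RPKM in retina, close to the pseudocount of 1 RPKM, which limits its difference.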

Other observations

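The 54 retina transcripts of the members outnumbered the 22 of eye, but not for every gene: 5 members had more transcripts in retina and 4 had equal numbers. The retina transcripts of RGS11 matched unevenly. Its transcripts of 982 and 1279 bases, at 24.5 and 20.01 RPKM, were 9.35 and 11.8 times as long as the coding stretch that their alignments of 35 and 36 residues span, whereas a transcript of 473 bases at 12.1 RPKM was aligned over its whole length, at 1.00 times. The retina transcript of GP179 at 122 RPKM was 1.16 times as long as its aligned stretch.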
